A study of Mus musculus with 10 samples.

Results

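miR-149 is a microRNA of low to middling abundance in mouse liver, and it was followed here as 1 row of a table of 285 mature miRNAs. The row was chosen because its normalised level was lower in Tsc1 mutant livers than in controls, so its levels are given as a description and without a test. Small RNA was sequenced from 5 livers of mice with a liver knockout of Tsc1 (L-Tsc1KO) and from 5 livers of littermate controls, all 14 weeks old. Tsc1 is a subunit of the TSC complex, which restrains mTORC1 signalling. The labels state no drug or diet for either group, and they do not say what drives the liver knockout, nor the strain or sex. Each library came from total RNA of whole liver tissue, so fewer cells of a type and less miRNA per cell cannot be told apart. The libraries held 6228497 to 12129069 miRNA reads. Hepatocyte miRNAs, led by miR-122, summed to at least 2818184 normalised reads in every library, and no miRNA of the exocrine pancreas list was in the table. The filters behind the table are not stated, so a miRNA missing from it may still have been present in the livers.

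MiRNAs are cut from a hairpin in a longer transcript, and either arm of the hairpin can be loaded into Argonaute, where its seed pairs with target messenger RNAs and lowers their output. The miR-149 hairpin is annotated inside the gene of glypican-1, a heparan sulfate proteoglycan of the cell surface that binds growth factors. In human cells the 5p arm has been reported to repress the cell cycle factor FOXM1 and the 3p arm to repress the kinase AKT1, which acts upstream of the TSC complex. These reports are background, and no target was measured in these libraries.

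The sequences of the hairpin and of both arms are shown because the row in the table carries no arm. The mean GC content of both arms is also among the highest in the table. They are taken from RefSeq on build GRCm38.p6 and written 5′ to 3′. In the hairpin the capitals mark the arms, and in each arm they mark the seed, bases 2 to 8.
Mir149 hairpin: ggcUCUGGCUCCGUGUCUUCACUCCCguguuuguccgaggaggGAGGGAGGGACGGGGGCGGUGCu
miR-149-5p: uCUGGCUCcgugucuucacuccc
miR-149-3p: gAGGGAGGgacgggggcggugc

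The hairpin lies at chr1:92850378-92850443 on the plus strand. It is 66 bases long, with the 5p arm at hairpin bases 4 to 26 and the 3p arm at bases 44 to 65. In the GENCODE M21 annotation of GRCm38 it sits in intron 1 of the protein-coding transcript of Gpc1, on the same strand, 18280 bases after the end of exon 1 and 2903 bases before the next exon. No exon of the 5 annotated Gpc1 transcripts overlapped it. The nearest other hairpin of the chromosome in the RefSeq table, Mir6901, lay 424106 bases away, and the nearest one with a row in these data was Mir375, at 17949657 bases. miR-149 is therefore described singly here and not as a member of a measured cluster.

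The 5p arm had a GC content of 60.9% and the 3p arm one of 81.8%. Their mean of 71.3% ranked 4 from the highest among the 239 rows whose name matched a RefSeq mature sequence, where the median was 47.8%. No other of these rows shared bases 2 to 8 with the 5p arm, and miR-3064-5p shared bases 2 to 7. The seed of the 3p arm occurred in an arm of miR-1943. Control livers had 24.0 ± 9.20 normalised reads of miR-1943 and mutant livers 16.0 ± 5.54 (SD, n = 5 per genotype), and its log2 difference was -0.54 (limma adjusted p = 0.419). miR-3064-5p was at 12.2 ± 3.44 normalised reads in control livers (SD, n = 5), and its log2 difference was -0.41 (limma adjusted p = 0.489). The longest run of bases that an arm of miR-149 shared with any other matched row was 8 for the 5p arm and 9 for the 3p arm, the latter with miR-92b-5p.

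In controls miR-149 stood at 239 normalised reads in replicate 1, 289 in replicate 2, 395 in replicate 3, 718 in replicate 4 and 280.1 in replicate 5. In Tsc1 mutants it stood at 88.6 in replicate 1, 109 in replicate 2, 119.9 in replicate 3, 133 in replicate 4 and 107 in replicate 5. Every mutant library lay below every control library, and the lowest control was 1.79 times the highest mutant. Among all 285 miRNAs, 7 had every mutant library below every control, a share of 2.46%, and the row was chosen from this same contrast. The control mean was 384 ± 195 normalised reads and the mutant mean 112 ± 16.6 (SD, n = 5 per genotype), a ratio of 3.44. On the scale of log2(normalised value + 1) the difference, mutant minus control, was -1.67 ± 0.30 (SE from the spread in each group), or 3.17-fold.

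**Figure D1:**
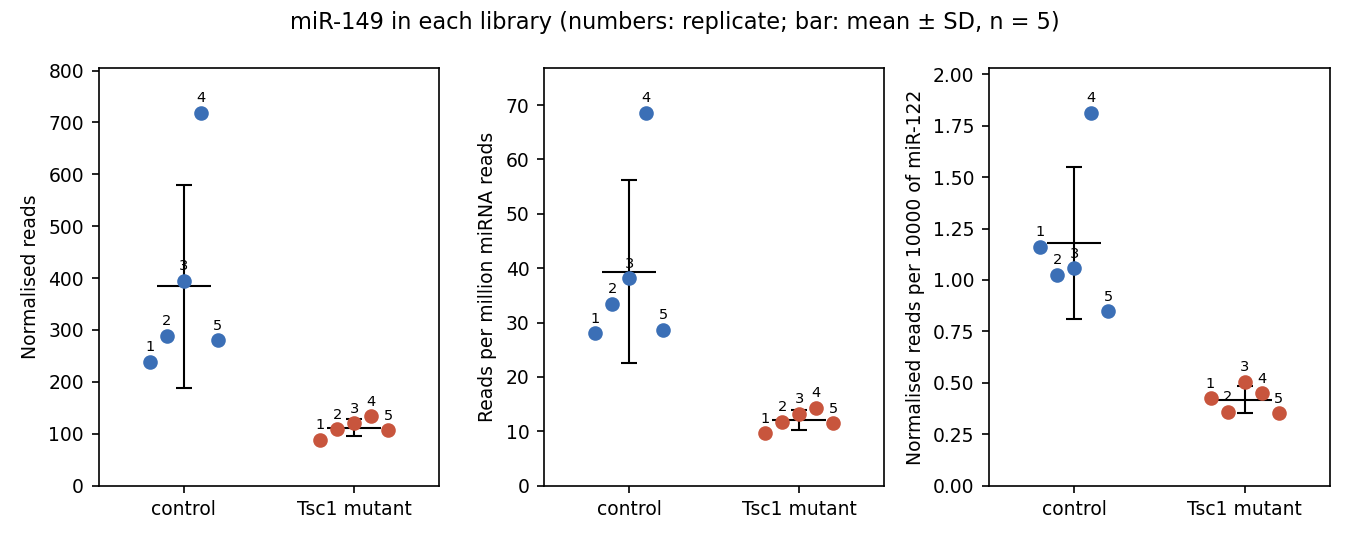
Level of miR-149 in each library on 3 scales, as normalised reads (left), reads per 1000000 miRNA reads (middle) and normalised reads per 10000 of miR-122 (right), by genotype; points are single libraries with their replicate number, and bars are the mean ± SD of 5. On each scale the 5 mutant libraries lie below the 5 controls, and control replicate 4 is the highest.

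The genotypes kept this order on each scale on which miR-149 was expressed. Before scaling, miR-149 was counted 273 to 458 times in controls and 93 to 128 times in mutants. Per 1000000 miRNA reads it made up 39.4 ± 16.8 reads in control livers and 12.1 ± 1.77 in mutant livers (SD, n = 5 per genotype). On this scale the lowest control was replicate 1 at 28.0 (95% exact binomial interval 24.9 to 31.4), and the highest mutant was replicate 4 at 14.3 (11.6 to 17.6). Reads without molecular identifiers are not independent molecules, so the intervals hold counting error and nothing else. Set against miR-122, the dominant hepatocyte miRNA, there were 1.18 ± 0.370 normalised reads of miR-149 per 10000 in control livers and 0.418 ± 0.0642 in mutant livers (SD, n = 5 per genotype). Within a library miR-149 held rank 105 to 147 of 285 by level in controls and rank 167 to 181 in mutants, so the ranks did not overlap either.

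The control livers were less alike than the mutant livers. The highest control was 3.01 times the lowest, while mutants lay between 88.6 and 133, and the SD of the log2 level was 0.63 in controls and 0.22 in mutants. Counting error alone was 4.67 to 10.4% of the level per library, which is small beside the coefficient of variation of 50.9% in controls and of a size with the 14.8% in mutants. The median log2 SD over all 285 miRNAs was also higher in controls, at 0.48 against 0.35. By this spread miR-149 ranked 98 from the highest in controls and 223 in mutants.

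Control replicate 4 carried much of the spread in controls. This library also had the fewest miRNA reads of all 10, and Tsc1 mutant replicate 4, the highest mutant for miR-149, had the second fewest, at 6489735. In control replicate 4 there were 427 reads of miR-149, fewer than the 458 in replicate 3, and 1 read was worth 1.68 normalised reads there against 0.862 in replicate 3. The part of depth in these levels was not tested. Without control replicate 4 the control mean was 300.6 ± 66.4 normalised reads (SD, n = 4) and its coefficient of variation 22.1%.

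Left out in turn, no single control removed the difference. Without control replicate 4 the log2 difference was -1.41, or 2.66-fold, which is the smallest of the 10 settings with 1 library left out. Without control replicate 1, the lowest control, it was -1.81, the largest of them. For the other controls it was -1.74 without replicate 2, -1.63 without replicate 3 and -1.75 without replicate 5, and with single mutants left out it ran from -1.73 to -1.59. Mutants lay below controls in all 10 settings, and by difference miR-149 ranked between 3 and 7 from the lowest of the 285 miRNAs.

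**Figure D2:**
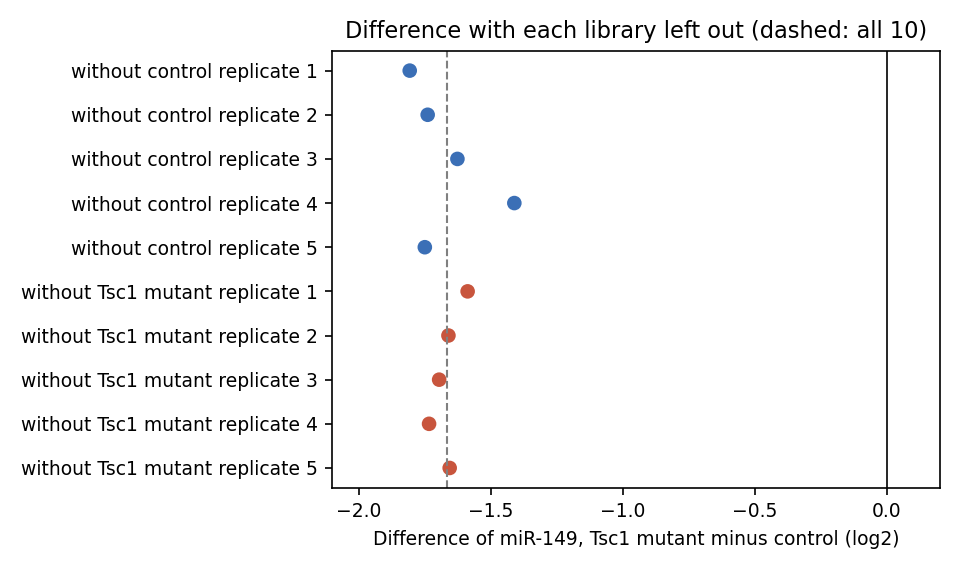
Difference of miR-149 between genotypes, mutant minus control on the log2(normalised value + 1) scale, with each of the 10 libraries left out in turn (blue: a control left out, red: a mutant); the dashed line is the value with all libraries. All 10 values lie between -1.81 and -1.41, and the one without control replicate 4 is nearest to 0.

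Among all miRNAs only miR-133a, miR-741 and miR-1247 had a lower log2 difference than miR-149 when all 10 libraries were used, at -1.99, -1.97 and -1.95. These 3 had a mean of 3.38, 4.46 and 2.42 normalised reads in mutants, where 3 reads came to between 2.55 and 4.30, whereas miR-149 had 112. Of them miR-133a varied widely in controls, at 27.4 ± 40.6 normalised reads (SD, n = 5), and was not called lower (limma adjusted p = 0.110). In the fit across all miRNAs 6, or 2.11%, were lower in mutants at a limma adjusted p of 0.05, and 31, or 10.9%, were higher. miR-149 is among the 6, from which nothing is read, since the row was chosen by this contrast. The other 5 were miR-741, miR-1247, miR-582-3p at -1.24, miR-320 at -0.77 and miR-3962 at -0.76 on the log2 scale. Of the 6, the groups of miR-1247 and miR-320 overlapped.

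The miRNAs closest to miR-149 in abundance give the level at which such a difference was measured. The 20 nearest in mean level, at 181 to 335 normalised reads, had a median log2 difference of 0.14, against -0.06 over all 285. By limma on log2 values 0 of the 20 were called lower, which is near the 2.11% over all 285 miRNAs. At an unadjusted limma p below 0.05, 1 was lower, as were 8.07% of all 285. With voom on whole reads 1 of the 20 was called lower, and 6 of all 285. The lowest was miR-574-3p at -0.78. The 5 that were called higher were miR-376b, miR-299, miR-300, miR-134 and miR-494, all of the imprinted Dlk1-Dio3 locus that the series names. Over all 285 miRNAs 10.9% were called higher. In controls 7 of the 20 had a larger log2 SD than miR-149, and in mutants 16 of them did.

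**Figure D3:**
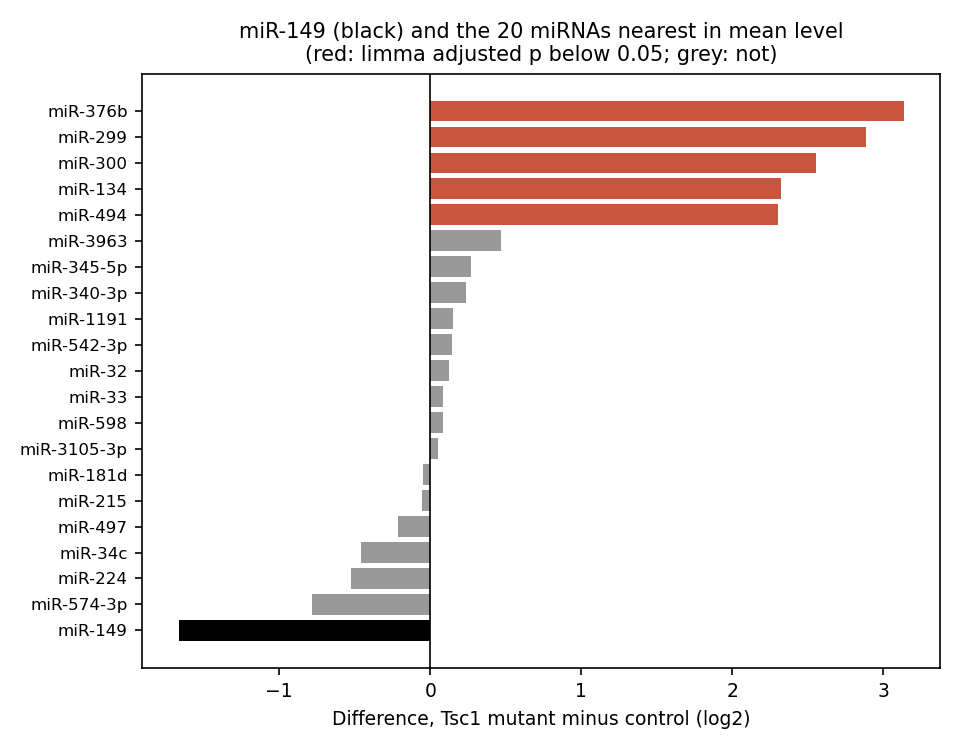
Difference between genotypes, mutant minus control on the log2(normalised value + 1) scale, of miR-149 (black) and of the 20 miRNAs nearest to it in mean level; red bars passed a limma adjusted p of 0.05 and grey bars did not. miR-149 is the lowest of the 21, at -1.67, and the next is miR-574-3p at -0.78.

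Within the genotypes miR-149 varied in step with several other miRNAs. Likeness was measured as Pearson's r over the 10 libraries on log2 values from which the mean of each genotype had been removed, for the 244 other miRNAs whose mean reached 20 normalised reads. The median r was -0.05. The highest were miR-103 at 0.90, miR-28c at 0.89, miR-28 at 0.89, miR-30c at 0.87, miR-26a at 0.84 and miR-337-5p at 0.81. These r values describe the same 10 libraries in which they were picked, with shared depth and scaling, and carry no p. Without control replicates 4 and 1, the libraries farthest from their genotype's mean for miR-149, r was 0.79 for miR-103, 0.78 for miR-28c, 0.74 for miR-28 and 0.47 for miR-337-5p. The likeness also depended on the scaling. With all 10 libraries scaled to an equal total, r was 0.77 for miR-103, 0.85 for miR-28c, 0.83 for miR-28 and 0.81 for miR-30c. It was then 0.64 for miR-26a and 0.78 for miR-337-5p.

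Because genotype means were removed, this likeness concerns the order of the livers within a genotype. miR-103, which is linked to insulin sensitivity in liver and fat, stood at 22366, 27660.3, 30473, 35628 and 24283 normalised reads in control replicates 1 to 5. As for miR-149, replicate 1 was its lowest control and replicate 4 its highest. In mutants it stood at 26690.0, 34682, 30852, 34506 and 30965 normalised reads in replicates 1 to 5, again lowest in replicate 1. Its log2 difference between genotypes was 0.18, with a limma adjusted p of 0.543, so no change was detected. For miR-28 and miR-28c, which both are members of the miR-28 family by name, the log2 differences were -0.20 and -0.44, with limma adjusted p of 0.543 and 0.243. Of the 6 miRNAs most like miR-149, 1 passed the threshold, and it was higher in mutants: miR-337-5p of the Dlk1-Dio3 locus, at 2.62 ± 0.35 (SE, limma adjusted p = 0.000216).

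The most opposite pattern was that of miR-296-3p, an miRNA of the imprinted Gnas region, with an r of -0.94. It stood at 58.3 normalised reads in control replicate 1, where miR-149 was lowest, and at 10.1 in control replicate 4, where miR-149 was highest. The latter value rests on few reads, since 3 reads came to 5.05 normalised reads in that library. Its lowest mutant value, 8.41 in replicate 3, where 3 reads came to 3.15, rests on few reads as well. In mutants it was highest in replicate 1 as well, at 19.1. Its mature sequence (RefSeq, GRCm38.p6) is shown to set it beside the arms of miR-149, since its GC content of 68.2% is also high, and the capitals mark bases 2 to 8.
miR-296-3p: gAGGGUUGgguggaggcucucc

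miR-503 and miR-341 came next, with r of -0.84 and -0.81. Without control replicate 4 these were -0.57 and -0.46, and without control replicates 4 and 1 they were -0.35 and -0.31. Much of both thus rested on these libraries. In control replicate 4 miR-503 was at 13.5 and miR-341 at 11.8 normalised reads, which again are few reads. For miR-296-3p r was between -0.96 and -0.85 under other pseudocounts and scalings, with the GC slope removed and with single libraries left out. It was -0.81 without control replicates 4 and 1. Both miR-149 and miR-296-3p had lower means in mutants, where miR-296-3p was at a log2 difference of -1.08 (limma adjusted p = 0.129). Both means were thus lower in mutants while the orders of the livers within a genotype were opposite.

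**Figure D4:**
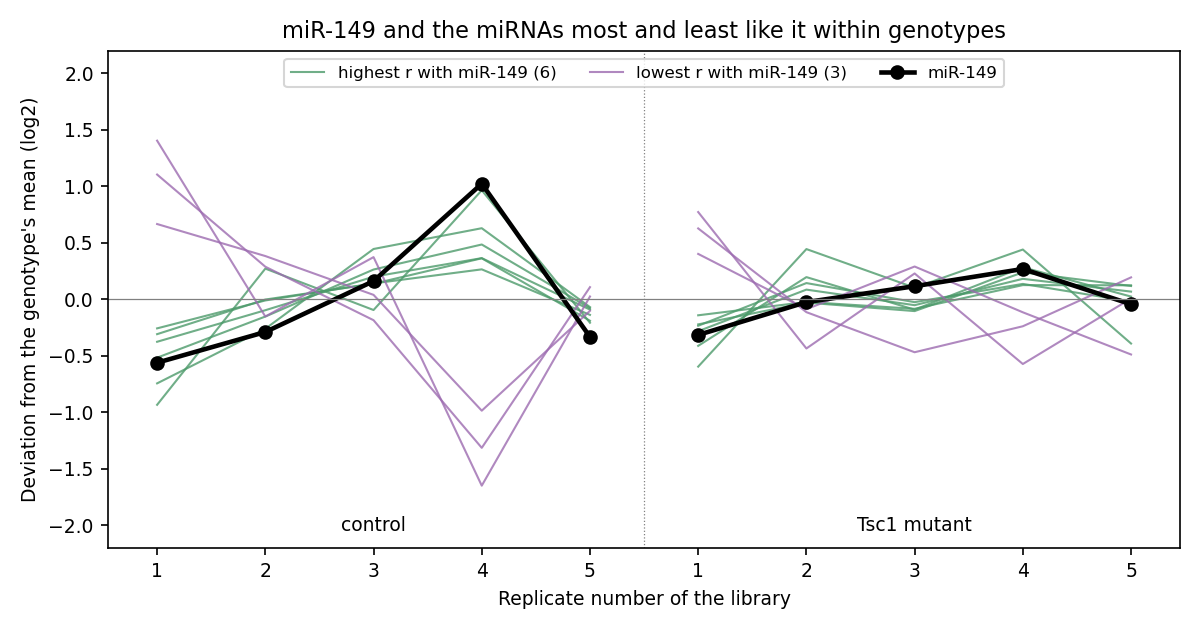
Deviation of each library from the mean of its genotype, in log2(normalised value + 1), for miR-149 (black), the 6 miRNAs with the highest r to it (green) and the 3 with the lowest (purple), by replicate number with controls on the left and mutants on the right. miR-149 is lowest in replicate 1 and highest in replicate 4 of both genotypes.

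In both genotypes, then, replicate 1 had the lowest miR-149 and replicate 4 the highest. The deviations from the genotype's mean were -0.56 and 1.02 on the log2 scale in control replicates 1 and 4, and -0.32 and 0.27 in mutant replicates 1 and 4. Replicates 2, 3 and 5 deviated by -0.29, 0.16 and -0.33 in controls and by -0.02, 0.12 and -0.04 in mutants. From lowest to highest the order was thus replicates 1, 5, 2, 3 and 4 in both genotypes, with little between replicates 5 and 2. The labels do not say that a replicate number marks a shared litter or day.

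miRNAs that mark other cell types were set beside miR-149. No member of the lists for 4 hepatocyte, 7 biliary and other epithelial, 3 striated muscle, 7 stellate and smooth muscle, 2 endothelial, 11 leukocyte, 3 erythroid or 6 neural miRNAs passed as lower in mutants by limma on log2 values or by voom on whole reads, while 4 of these 43 were lower at an unadjusted p below 0.05, against 8.07% of all 285 miRNAs. No marker of these lists was at 0 in any library. Those that passed as higher were miR-802 of the hepatocyte list and miR-137 of the neural list. Over all 285 miRNAs 2.11% passed as lower and 10.9% as higher by limma on log2 values. The lack of lower calls among the 43 is thus near the background. The median log2 differences of these lists were -0.02, -0.74, -1.27, -0.06, -0.05, -0.06, 0.11 and -0.49 in the same order. The epithelial and muscle lists had the lowest medians, and both sums had their highest value in control replicate 2. There the epithelial sum was 36861 normalised reads against 5049 to 6137 in the other controls and 3170 to 7073 in mutants. The muscle sum was 5638 there, against 268 to 559 in the other controls and 151 to 919 in mutants. miR-149 was at 289 in that library, the median control, and its log2 difference without that library was -1.74.

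Summed stellate and smooth muscle miRNAs ran from 188188 to 391392 normalised reads in controls and from 160846 to 274383 in mutants. Among controls they were lowest in replicate 4, where miR-149 was highest. Leukocyte and erythroid sums were also lowest in control replicate 4, at 18862 and 3886 normalised reads, and highest in control replicate 1, at 32436 and 5924. Hepatocyte, endothelial and neural sums were, like miR-149, lowest in control replicate 1 and highest in control replicate 4. They ran from 2818184 to 4980623 for the hepatocyte list, from 113035 to 160119 for the endothelial list and from 992 to 2052 for the neural list. The sums of all these lists overlapped between genotypes, and their part in the level of miR-149 was not tested.

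Of 17 miRNAs linked to PI3K, AKT and mTOR signalling, 0 rose and 0 fell at a limma adjusted p of 0.05, with a median log2 difference of -0.06. Over all 285 miRNAs 10.9% rose and 2.11% fell, so a count of 0 lower among 17 is near the background. At an unadjusted p below 0.05, 2 of them were lower and 0 higher, against 8.07% and 14.4% over all miRNAs, and voom on whole reads called 0. On the list for glucose and lipid metabolism of liver, 2 of 20 miRNAs rose, which were miR-802 and miR-29a, and 0 fell, with a median of 0.07, which is near the background of 10.9% and 2.11%. At an unadjusted p below 0.05, 0 of the 20 were lower and 4 higher. The median over all miRNAs was -0.06, so neither list as a whole had a median near the -1.67 of miR-149.

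The base composition of miR-149 was also set beside its difference. Among 37 other miRNAs with a GC content of at least 60%, the median log2 difference was -0.22, 25 were below 0 and 1 passed as lower, near the 2.11% over all miRNAs. Among 201 miRNAs of lower GC content the median was -0.02 and 108 were below 0. With a linear slope on GC content removed within each library, the difference of miR-149 was -1.42, and every mutant still lay below every control. GC content was taken as the mean of both arms where a name carried none. For miR-149 this mean lies above the 60.9% of its 5p arm, and the row does not say which arm was counted.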

How the data were processed

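The authors deposited 1 table of normalised signal, whose values are miRNA reads scaled by 1 factor for each library. Per the submitters' processing notes the tool was DESeq, with no version stated. Aligner, miRNA annotation, build and filters: not given in the sources used here. The 10 columns were matched to samples by library number. Every value was a whole multiple of 1 step within 0.01 reads (100% of values), which gave whole reads and depth.

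miR-149 and the lists were chosen with earlier results of these data known. All 285 miRNAs (mean of at least 5 normalised reads, which all met) were fitted as log2(value + 1) with limma 3.58.1 in R 4.3.3, with genotype as the only term, empirical Bayes moderation with a trend, and Benjamini-Hochberg adjustment at 0.05. The fit was also run on simulated data. There the miRNAs varied independently and with equal spread in both genotypes, unlike here, so nothing is read from that run. Fold changes on this scale understate those of rare miRNAs. P-values measure the spread between these livers only; no pair of the 10 libraries was identical. Named were miR-149, the 6 miRNAs most and the 3 least like it, those sharing a seed, those called lower and called list members; the 20 nearest in level and the GC class were chosen after the data were seen. Sequences matched 239 of 285 rows by name (83.9%). Related miRNAs, such as miR-28 and miR-28c, may share reads. Figures were drawn with matplotlib 3.10.9.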

Additional observations from a re-analysis of the deposited data

Results flagged for a closer look

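In 36 groups of 5 values, the distance of an end value to its nearest neighbour was divided by the range of the group. In 3 groups this ratio exceeded Dixon's 95% critical value of 0.71 for 1 library, and chance alone flags about 1.8. In control replicate 2 the biliary and other epithelial miRNAs summed to 36861 and the striated muscle miRNAs to 5638 normalised reads, far above the other controls, with miR-149 at 289 there. In control replicate 1 the endothelial miRNAs summed to 113035 normalised reads against 151157 to 160119 in the other controls, and miR-149 was at its lowest control level, 239. These sums hold miRNAs that vary together.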

How the results depend on the processing

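The log2 difference of miR-149 was between -1.81 and -1.41 in 24 other settings, which were 2 other pseudocounts, 2 filters, 4 scalings, limma with array weights or with no trend, a replicate block, removal of the GC slope, each library left out, and 2 settings chosen after seeing the data, namely voom on whole reads and both replicates 1 left out. It moved by less than the pooled SD of 0.47 in each. The 2 filters, limma with no trend and the replicate block could not move it by construction, so they do not count as checks of this value. The replicate block, in which each number occurs once per genotype, changed only its limma SE, to 0.20 in place of 0.29. It gave 10 miRNAs lower in mutants in place of 6. Same-numbered libraries deviated together with a correlation over 0.1 in 3 of 5 pairs, from -0.05 to 0.85, and 4 of the 10 libraries were closest to their own number, so a pairing by number was not shown for all pairs and no result rests on it. The count of lower miRNAs was 23 with array weights and 11 with both replicates 1 left out. With single libraries left out it ran from 2 to 10, with 10 when control replicate 1 was missing, 3 when control replicate 3 or control replicate 5 was, and 2 when Tsc1 mutant replicate 4 was. The count with every mutant below every control was 4 with upper quartile scaling. With single libraries left out it ran from 7 to 17, with 17 when control replicate 1 was missing and 11 when control replicate 4 or Tsc1 mutant replicate 1 was, where fewer libraries make such an order more common. Of the other miRNAs called lower, miR-741 kept its call in every setting that tested it, miR-582-3p lost it in 10, miR-320 in 8, miR-1247 in 6 and miR-3962 in 5, and the cause was not tested. The planned count test on whole reads with edgeR was not run, because the unit check set for it needs more low values per library than the table has. The whole reads used elsewhere rest on every value being a whole multiple of 1 step in its library.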
